A study of Mus musculus with 2 samples.

Results

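Interferon-stimulated mature neutrophils were lung neutrophils that carried unusually many transcripts of 5 interferon-induced genes, Isg15, Rsad2, Ifit1, Ifit3 and Cxcl10. They numbered 270 of the 16995 cells analyzed, with 35 in the saline library and 235 in the nanoparticle (NP) library. A cell was a barcode with 500 to 5000 detected genes and under 7.5% mitochondrial unique molecular identifiers (UMIs), each of which counts 1 captured transcript molecule. Neutrophils had at least 5% of their UMIs on S100a8 and S100a9, the alarmin pair that fills neutrophil cytoplasm, at least 2 UMIs on Csf3r, Cxcr2, Retnlg, Ly6g, Mmp8 and Ngp together, and at most 1 UMI on the monocyte, B cell, endothelial and T cell genes F13a1, Ccr2, Cd79a, Cdh5 and Cd3e. Mature neutrophils had under 1% of UMIs on the granule genes Ngp, Camp and Ltf, which neutrophils transcribe while still developing. The interferon-stimulated cells were the mature neutrophils with at least 0.3% of UMIs on the 5 interferon genes. The other 7285 mature neutrophils, 4872 saline and 2413 NP, served as the comparison within each library.

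The lungs came from female BALB/cJ mice labeled as 12 weeks of age, which the study's methods give as the age at inoculation, bearing 4T1 tumors grown from 100000 inoculated cells of this mouse mammary carcinoma line. Saline-treated mice received saline intravenously, and NP-treated mice received particles of the polymer PLG with no drug cargo, beginning on day 1 and repeated every 3 days. Lungs were taken on day 14, red cells were lysed, and the cells of 4 mice per group were pooled into 1 library by the sample labels. The study's methods state another number of mice, and that of the labels is used here. Neither library can be split by mouse. With 1 library per condition there were no replicates and no tests, condition and library cannot be told apart, and every interval is a 95% interval that covers counting error only.

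Interferons are secreted proteins that signal through cell-surface receptors and JAK kinases to STAT transcription factors. Type I interferon drives mainly a STAT complex with IRF9 that binds interferon-stimulated response elements. Interferon-γ (IFN-γ) drives mainly STAT dimers that bind gamma-activated sites, and it induces IRF1, which also acts on response elements. Both induce overlapping gene sets, with antiviral effectors most closely tied to type I interferon and guanylate-binding proteins (GBPs) and immunity-related GTPases (IRGs) most closely tied to IFN-γ. Neutrophils with high antiviral transcripts are a recognized state of mature neutrophils in blood and inflamed tissue.

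The promoters of the 5 genes that defined the cells are shown first, because each held a sequence of the response element type. Promoters ran from 250 bases before the gene start to 50 after it, from RefSeq on GRCm38.p6 (mm10), the build of the counts, and were read 5′ to 3′ on the strand of the gene. They were searched on both strands for GAAA, any 2 bases and GAAA again (read on the other strand as TTTC, 2 bases and TTTC), and for the gamma-activated type TTCNNNGAA, which reads the same on both strands. Gbp5 and Igtp, chosen after their values were seen, stand for the GBPs and IRGs. Capitals mark the matches, and in Isg15 and Igtp the matches overlap or lie close together. RefSeq sequence is that of C57BL/6J mice, not of BALB/cJ. The positions were chr4:156200855-156200916 (minus strand) for Isg15, chr12:26456543-26456592 (minus) for Rsad2, chr19:34640765-34640833 (plus) for Ifit1, chr19:34583353-34583436 (plus) for Ifit3, chr5:92349073-92349122 (minus) for Cxcl10, chr3:142496749-142496910 (plus) for Gbp5 and chr11:58199502-58199551 (plus) for Igtp.
Isg15: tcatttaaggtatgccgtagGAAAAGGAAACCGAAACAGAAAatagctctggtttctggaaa
Rsad2: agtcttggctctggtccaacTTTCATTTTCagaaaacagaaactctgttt
Ifit1: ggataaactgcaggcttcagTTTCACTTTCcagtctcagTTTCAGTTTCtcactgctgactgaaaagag
Ifit3: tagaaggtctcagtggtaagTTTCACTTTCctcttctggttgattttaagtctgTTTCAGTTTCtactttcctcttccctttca
Cxcl10: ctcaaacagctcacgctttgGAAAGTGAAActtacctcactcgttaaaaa
Gbp5: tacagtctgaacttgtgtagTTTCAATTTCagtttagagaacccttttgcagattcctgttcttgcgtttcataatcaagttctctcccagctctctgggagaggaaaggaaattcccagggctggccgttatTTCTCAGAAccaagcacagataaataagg
Igtp: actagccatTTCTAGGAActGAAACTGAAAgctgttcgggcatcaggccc

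In these promoters Isg15 held 3 overlapping response element matches that began 78, 72 and 66 bases before the gene start. The matches began 120 bases upstream in Rsad2, 104 and 85 in Ifit1, 156 and 122 in Ifit3, and 213 in Cxcl10. Gbp5 held a response element match at 165 and a gamma-activated match at 52, with a further gamma-activated match at 245 outside the stretch printed. Igtp held a gamma-activated match at 45 that lay just before its response element match at 34. Among all 32851 RefSeq promoters, of 27025 genes, 3.44% held the response element letters and 8.30% held TTCNNNGAA. These shares count promoters, whereas the list shares that follow count genes, some with several promoters. A gene with several promoters has more chances of a match, so the units differ. The response element letters were in 5 of the 5 defining genes, in 15 (44.1%) of 34 antiviral genes with a promoter, in 10 (90.9%) of 11 GBPs and IRGs, in 5 (26.3%) of 19 major histocompatibility complex (MHC) class I pathway genes and in 1 of 26 tumor necrosis factor (TNF) and NF-κB response genes. They were in 1 (10%) of 10 other genes linked to IFN-γ. All list shares are of genes with a promoter, and not of whole lists. Those were 34 of 44 antiviral genes, 11 of 18 GBPs and IRGs and 10 of 19 other IFN-γ-linked genes. For the MHC class I pathway they were 19 of 22 and for the TNF and NF-κB genes 26 of 31. The gamma-activated letters were in 0 of the 5 defining genes, 6 (17.6%) of the antiviral genes, 6 (54.5%) of the GBPs and IRGs, 4 (40%) of the other IFN-γ-linked genes, 2 (10.5%) of the MHC class I genes and 4 (15.4%) of the TNF and NF-κB genes. A match is a description of these letters in this window, not a binding site.

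The rule set a minimum on S100a8 and S100a9 together, and another on Csf3r, Cxcr2, Retnlg, Ly6g, Mmp8 and Ngp together. Levels of these genes therefore describe the cells chosen and do not test the label. S100a8 and S100a9 took a median of 15.8% of UMIs in the saline interferon-stimulated cells and 14.4% in the NP cells, against 22.2% and 23.5% in the other mature neutrophils. Csf3r, the receptor for the neutrophil growth factor G-CSF, stood at 1773 CPM (a gene's UMIs over all UMIs of the pooled cells, times 1000000) in saline and 1800 in NP cells, and Cxcr2, a chemokine receptor of mature neutrophils, at 1133 and 1393. The median cell held 3721 UMIs and 1246 genes in saline and 4306 UMIs and 1236 genes in NP, less than the 5992 and 5346 UMIs of the other mature neutrophils. Pooled, the 35 saline cells gave 156251 UMIs and the 235 NP cells gave 1118885, so saline values rest on far fewer molecules. Of the cells, 21 barcodes occurred in both libraries, and 0 of them were interferon-stimulated neutrophils.

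Markers of other cell types were low in both sets of cells, apart from a few genes. The rule allowed at most 1 UMI on F13a1, Ccr2, Cd79a, Cdh5 and Cd3e together, so low levels of these monocyte, B cell, endothelial and T cell markers were set by the choice of cells, and the lists' other genes were not limited. Of 12 monocyte and macrophage markers, 7 were detected in saline cells with a summed level of 634 CPM and 9 in NP cells with 823, against 456 and 570 in the other mature neutrophils. F13a1 and C1qa had 0 UMIs in both, and Fn1 and Cx3cr1 had 0 in saline. The most abundant was Psap in saline and Ctss in NP, both lysosomal genes that neutrophils also transcribe, and Ctss stood at 192 CPM in saline and 319 in NP, against 61.5 and 112 in the other mature neutrophils. The 6 dendritic cell markers totaled 0 UMIs in saline and 1 in NP. B cell markers summed to 25.6 and 24.1 CPM (Cd79a and Ighm most abundant), endothelial markers to 83.2 and 76.0 (Ramp2 and Epas1, against 30.5 and 85.7 in the others), T and NK cell markers to 2 and 28 UMIs (Cd3d) and platelet markers to 1 and 12 UMIs (Ppbp and Pf4), and Ms4a1 of B cells and Gp9 of platelets had 0 UMIs in both. In saline the endothelial sum was 2.73-fold higher than in the others (1.45 to 4.68), on 13 UMIs of which 46.2% were in 1 cell. Epithelial markers summed to 570 CPM in saline, where 82 of 89 UMIs were Scgb1a1, and to 140 in NP, where 118 of 157 were Sftpc, against 295 and 631 in the others, and Epcam had 0 UMIs in both. Without the cell that held the most, the interferon-stimulated cells were at 185 CPM in saline and 132 in NP, and the others at 128 and 359. Their part in the results was not tested.

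Interferon-stimulated cells were 0.655% (0.457% to 0.910%) of 5342 saline neutrophils and 7.88% (6.94% to 8.91%) of 2982 NP neutrophils, a 12.0-fold higher share (8.41 to 17.7) in the NP library. With Isg15 left out of the rule, 4 saline (0.0749%) and 68 NP cells (2.28%) passed, a log2 ratio of 4.93 (3.51 to 6.85) against 3.59 with all 5 genes. Of mature neutrophils, by the rule with all 5, they were 0.713% and 8.87%, and of all cells 0.404% and 2.82%, a 6.98-fold difference (4.88 to 10.3). These shares follow from the rule and are a description. The ratio between libraries depended on the level asked for. At 0.05% of UMIs on the 5 genes, 11.2% of saline and 45.4% of NP mature neutrophils qualified, a 4.05-fold ratio. At 0.1% it was 5.46-fold, at 0.2% 9.13-fold, and at 0.5%, where 0.265% and 4.42% qualified, 16.7-fold. At 0.6% it was 20.2-fold (9.79 to 48.2), at 0.8% 29.2-fold (10.9 to 110), from 4 saline and 63 NP cells, and at 1% 25.3-fold (8.08 to 128), from 3 saline and 41 NP cells, and at 2% there were 0 saline and 9 NP cells. From 0.25% to 0.35% there were 32 saline mature neutrophils, 10 of them inside the 0.3% limit, and 103 in NP, 41 of them inside. Cells thus lay on both sides close to the limit. Shares at or above a few chosen levels cannot show whether the distribution is continuous.

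**Figure D1:**
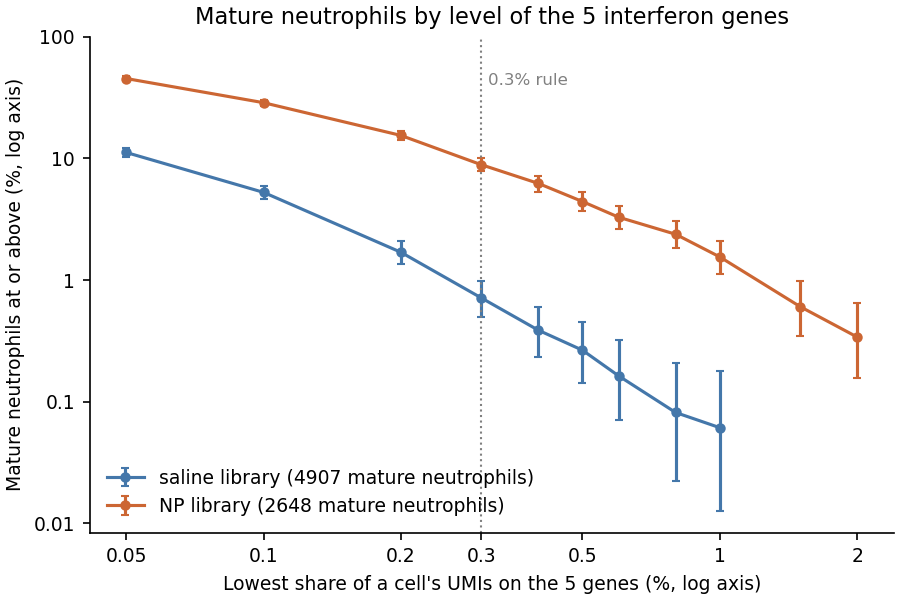
Share of mature neutrophils (%, log axis) with at least a given share of UMIs on the 5 interferon genes (%, log axis) in the saline and NP libraries, with points as shares and bars as 95% Clopper-Pearson intervals; levels with 0 cells are not drawn. The NP curve lies above the saline curve at every level shown, and the ratio was 4.05-fold at 0.05%, 29.2-fold at 0.8% and 25.3-fold at 1%.

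The median share of UMIs on the 5 genes was 0.406% among saline interferon-stimulated cells, with a highest cell of 1.15%, and 0.493% among NP cells, with a highest cell of 5.12%. In the other mature neutrophils the medians were 0% in saline and 0.0310% in NP, and 58.7% and 28.7% of those cells had no UMI of any of the 5 genes. The saline cells just inside the limit held 24 of 7968 UMIs (0.301%) and 21 of 6912 (0.304%), and those just outside held 14 of 4743 (0.295%) and 15 of 5096 (0.294%). In NP the nearest cells inside held 12 of 3962 (0.303%) and 11 of 3630 (0.303%), and those outside held 14 of 4677 (0.299%) and 14 of 4704 (0.298%). A few molecules thus decided on which side of the limit such a cell fell.

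The 5 genes did not contribute equally, nor in the same way in both libraries. Isg15, an interferon-induced ubiquitin-like protein that is attached to many targets, supplied 68.3% of the UMIs behind the rule in saline cells and 55.3% in NP cells. Its level was 3443 CPM in saline and 3892 in NP interferon-stimulated cells, against 133 and 430 in the other mature neutrophils. Rsad2, the antiviral enzyme viperin, was at 595 and 797 CPM against 7.57 and 34.3. Ifit1, which binds foreign RNA, was at 550 and 778 CPM against 7.57 and 35.7. These 3 genes differed by less than 2-fold between the interferon-stimulated cells of the libraries, with NP over saline log2 ratios of 0.18 (0.05 to 0.31), 0.42 (0.11 to 0.75) and 0.50 (0.18 to 0.84). Both sets had to pass the same limit on these genes, so nothing is read from these ratios.

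Cxcl10, a chemokine that attracts T and NK cells through CXCR3, and Ifit3, a partner of Ifit1, rested on few saline cells, and as genes of the rule they are given as a description. In the saline cells all 38 UMIs of Cxcl10 came from 1 cell, whereas in the NP cells 1557 UMIs came from 48 cells with at most 156 in 1 cell. Its level was 243 CPM in saline, all of it from that cell, and 1392 in NP, and it made up 4.82% of the defining UMIs in saline and 19.8% in NP. That saline cell had 0 UMIs of the other defining genes, so it passed the limit on Cxcl10 alone. It had 3 antiviral UMIs, or 806 CPM, against 1756 CPM in the other mature neutrophils of saline. With Cxcl10 left out of the rule, 34 saline and 224 NP cells passed. Ifit3 was at 211 and 174 CPM, but 27 of its 33 saline UMIs came from 1 cell, without which the saline level was 42.0 CPM. In the other mature neutrophils Cxcl10 was at 0.656 and 6.10 CPM and Ifit3 at 0.766 and 2.89.

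**Figure D2:**
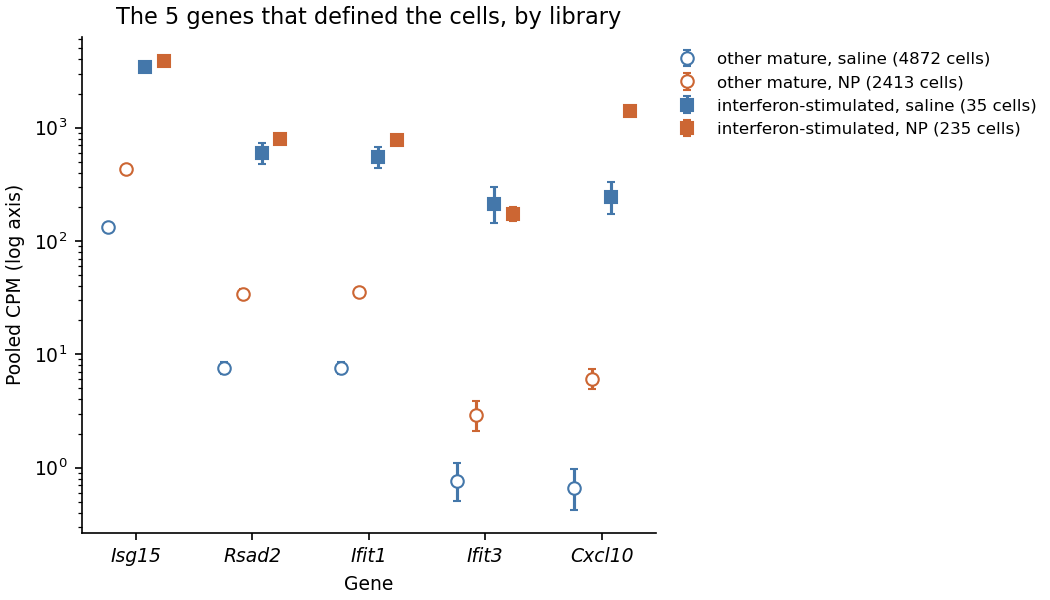
Pooled CPM (log axis) of the 5 genes that defined the cells, with squares for interferon-stimulated cells, circles for other mature neutrophils, colors for the libraries and bars as 95% Poisson intervals. In the interferon-stimulated cells, chosen on these genes, Isg15 lay at 3443 CPM in saline and 3892 in NP and Cxcl10 at 243 and 1392, where the saline value comes from 1 cell, which the Poisson interval does not show.

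Isg15 was detected in 97.1% of the saline and 99.1% of the NP interferon-stimulated cells, and after thinning each cell to 2000 UMIs in 97.1% and 97.8%, with 0 saline and 3 NP cells too shallow to thin. In the other mature neutrophils it was detected in 40.1% and 69.3% of cells, and after thinning in 20.4% and 47.8%. B cells, with median depths of 4366 and 4468 UMIs, had an Isg15 UMI in 5.49% and 6.93% of cells, and after thinning in 2.76% and 2.83%. Rsad2 was detected in 62.9% and 69.8% of interferon-stimulated cells (48.6% and 58.2% thinned) and in 1.48% and 0.825% of B cells. Cxcl10 was detected in 2.86% and 20.4% of interferon-stimulated cells (2.86% and 18.5% thinned) and in 0.633% and 0.990% of B cells. Of the 5 genes, 6 saline cells had 1, 12 had 2, 12 had 3, 5 had 4 and 0 had all 5. Of the NP cells, 31 had 1, 65 had 2, 84 had 3, 44 had 4 and 11 had all 5.

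Compared with the other mature neutrophils of the NP library, 209 of 4496 genes (4.65%) with at least 200 UMIs over both sides were at least 2-fold higher in the interferon-stimulated cells and 127 (2.82%) were at least 2-fold lower, with a median log2 ratio over all genes of 0.13. For 135 genes (3%) higher and 35 (0.778%) lower, the whole interval lay past 2-fold. In saline the same limits gave 705 genes (12.5%) higher and 439 (7.78%) lower of 5640, but most of these genes had fewer than 10 UMIs expected in the 35 cells. Where at least 10 UMIs were expected, 48 (3.25%) of 1478 genes were higher and 74 (5.01%) lower, and with the whole interval past 2-fold 87 (1.54%) were higher and 22 (0.390%) lower of 5640. The cells were chosen on this contrast, so these counts and all ratios to other mature neutrophils below are a description. Gene lists were judged on genes with at least 50 UMIs over both sides, among which 5.97% of 7248 genes were 2-fold higher and 6.18% lower in NP and 20.2% of 6563 were higher and 6.69% lower in saline.

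The antiviral genes were higher in the interferon-stimulated cells almost without exception. Apart from the 5 defining genes, 36 of 37 measured antiviral genes were 2-fold higher in NP, with a median log2 ratio of 1.94, and 36 of 36 in saline, with a median of 2.85. Their summed level was 10709 CPM in NP and 9408 in saline cells, against 3279 and 1756 in other mature neutrophils. Ifit2, an RNA-binding relative of Ifit1, was at 102 CPM in saline and 99.2 in NP interferon-stimulated cells and at 0.383 and 1.51 in the others, and Ifit3b at 186 and 183 against 1.34 and 8.61. Usp18, which removes Isg15 from its targets and damps interferon receptor signaling, was at 122 and 118 CPM against 3.28 and 11.6. Irf7, the transcription factor that amplifies type I interferon, was at 602 and 582 against 56.0 and 132. Ifi27l2a, the antiviral list gene with the most UMIs, was at 1376 and 1611 CPM against 181 and 556, and Rtp4 at 890 and 946 against 109 and 286. Slfn1, a Schlafen gene tied to lymphocyte quiescence, was the exception in NP, with a log2 ratio of 0.79 (0.70 to 0.88). The other mature neutrophils of the NP library had higher levels of most of these genes than those of the saline library, so the ratios were smaller in NP although the interferon-stimulated cells had like levels.

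GBPs and IRGs, GTPases that attack membranes around intracellular microbes, were higher as well. In NP 12 of 13 measured genes were 2-fold higher (median log2 2.26), and in saline 8 of 8 (median 2.90). Gbp2b was at 1561 CPM in NP interferon-stimulated cells and 277 in other mature neutrophils, and at 288 and 53.9 in saline. Gbp5, which promotes inflammasome assembly, was at 273 CPM in NP cells against 19.3, a log2 ratio of 3.82 (3.59 to 4.06), and had only 4 UMIs in the saline cells. Ifi47, an IRG, was at 724 against 84.8 in NP and 141 against 6.43 in saline. Reads of close paralogs such as Gbp2 and Gbp2b can be split uncertainly between them.

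Of the interferon signaling genes, 7 of 24 in NP and 7 of 22 in saline were 2-fold higher, with medians of 0.52 and 0.65, and the summed list was 6536 CPM in NP and 4634 in saline interferon-stimulated cells. The receptor genes were not among them. Ifnar1, a subunit of the type I interferon receptor, had log2 ratios of 0.03 (-0.42 to 0.45) in NP and 0.55 (-0.66 to 1.53) in saline, and Ifngr1, a subunit of the IFN-γ receptor, 0.11 (-0.04 to 0.26) and 0.41 (0.09 to 0.71). Among the downstream genes, Socs1, the feedback inhibitor of JAK kinases, was higher, at 282 CPM against 24.0 in NP and at 51.2 against 5.82 in saline. Of the other genes linked to IFN-γ, 9 of 12 were 2-fold higher in NP (median 1.81) and 5 of 9 in saline (median 1.45). Cxcl9, a further CXCR3 ligand, had 379 UMIs in NP cells, yet these came from 7 cells with 182 in 1, and its level of 339 CPM was 177 without that cell. Cd274, the checkpoint ligand PD-L1, was at 296 CPM against 54.5 in NP and 76.8 against 7.46 in saline.

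Antigen presentation genes divided by class. Of 22 MHC class I pathway genes, 18 were 2-fold higher in NP, and of 19 measured in saline 13 were, with medians of 1.37 in both. H2-K1, a classical class I heavy chain, was at 1098 CPM against 422 in NP and 538 against 156 in saline, and the immunoproteasome gene Psmb8 at 804 against 265 and 410 against 137. B2m, the invariant light chain, was at 3083 against 1343 and 1760 against 804. MHC class II genes did not follow, with 0 of 5 at 2-fold in NP (median 0.14), 1 of 2 in saline and summed levels of 86.7 CPM in NP and 32.0 in saline cells against 103 and 34.3 in the others. In saline cells the class II list rested on 5 UMIs.

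TNF and NF-κB response genes were also higher, with 14 of 29 at 2-fold in NP (median 0.93) and 10 of 29 in saline (median 0.88), and their sum was 36987 CPM against 21885 in NP and 28185 against 14507 in saline. Il1b, the inflammatory cytokine that supplied most of these UMIs, was at 19550 CPM in NP and 19501 in saline interferon-stimulated cells against 11943 and 9152. Ccrl2, an atypical receptor that binds chemerin, had log2 ratios of 1.54 (1.47 to 1.61) in NP and 1.78 (1.55 to 2.01) in saline. Cxcl2, a neutrophil chemoattractant, did not differ by 2-fold, with ratios of 0.19 (0.14 to 0.23) and -0.05 (-0.22 to 0.12). Of the secreted factor genes 9 of 22 were 2-fold higher and 1 lower in NP and 6 of 20 higher and 1 lower in saline, with sums of 27055 and 23162 CPM.

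Several genes of neutrophil granules and identity were lower in the interferon-stimulated cells. Of 15 granule genes, 5 were 2-fold lower in NP (median -0.59) and 7 in saline (median -0.88), and 0 were higher in either. The granule sum was 10244 CPM against 15141 in NP and 9709 against 16508 in saline. The rule limited Ngp, Camp and Ltf in both sets of mature cells, and those 3 genes are not on the list. Lcn2, the iron-scavenging lipocalin of secondary granules, was at 1615 against 3397 in NP and 1376 against 4241 in saline. Mmp8, a collagenase, had log2 ratios of -1.62 (-1.82 to -1.43) and -2.04 (-2.65 to -1.50), and Cd177, a surface protein of neutrophil subsets, -2.36 (-2.80 to -1.94) and -1.90 (-2.85 to -1.09). Ly6g, the antigen by which mouse neutrophils are sorted, was at 189 CPM against 492 in NP and at 122 against 419 in saline. Mmp8 and Ly6g were also among the genes of the neutrophil rule. Prok2, a secreted factor that mobilizes myeloid cells, was at 116 against 583 and 147 against 702.

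Most other identity genes were not 2-fold different. Of 23 measured in NP, 4 were 2-fold lower and 1 higher, with a median of 0.02, and of 22 in saline 5 were lower and 1 higher, with a median of -0.15. Their sum, most of it S100a8 and S100a9, which the neutrophil rule used, was lower, at 218688 CPM against 320316 in NP and 238674 against 319843 in saline. Cxcr4, a receptor that retains neutrophils in marrow and is higher on aged neutrophils, had ratios of 0.83 (0.65 to 1.01) in NP and 1.22 (0.78 to 1.62) in saline, and the Fc receptor gene Fcgr4 1.15 (1.00 to 1.29) and 0.38 (-0.16 to 0.88). Stefin genes, cysteine protease inhibitors of mouse neutrophils, summed to 8371 CPM against 13596 in NP and 10682 against 23702 in saline, although 686 of the 1669 saline UMIs were in 1 cell and the level without it was 6877. Of them 1 of 8 in NP and 3 of 7 in saline were 2-fold lower, with medians of -0.83 and -0.93, and Stfa3 had ratios of -1.57 (-1.76 to -1.38) and -2.32 (-2.78 to -1.90). Retnlg, a resistin-like gene that also entered the neutrophil rule, was at 4884 against 12109 in NP and 4486 against 13711 in saline. Hemoglobin genes were 4 of the 5 lowest genes in NP. Hba-a1 had 8 UMIs in the NP cells, a log2 ratio of -5.67 (-6.89 to -4.70), and the 4 hemoglobin genes summed to 55.4 CPM against 1622 in NP and 44.8 against 1121 in saline, or 1082 and 790 in the others without the cell that held most.

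Between the libraries, the interferon-stimulated cells differed more in IFN-γ-linked than in antiviral genes. Both sets passed the same limit on 5 interferon genes, and its part in the antiviral levels was not tested. In the other mature neutrophils the antiviral sum was 1.87-fold higher in NP (1.85 to 1.89), that of the GBPs and IRGs 5.31-fold (5.17 to 5.46) and that of the other IFN-γ-linked genes 2.16-fold (2.12 to 2.21). Of 763 genes with at least 200 UMIs over both sets of cells, 43 (5.64%) were 2-fold higher in NP and 1 (0.131%) was lower, with a median log2 ratio of 0.05, and for 17 (2.23%) the whole interval lay past 2-fold. Among the 2400 genes with at least 50 UMIs used for the lists, 7.75% were 2-fold higher and 1.88% lower. Antiviral genes had 6 of 34 at 2-fold higher and 0 lower (median 0.17), and their sum was 1.14-fold higher in NP (1.08 to 1.20). The sum over all 18 GBPs and IRGs in the files was 3.60-fold higher (3.16 to 4.12), at 5346 CPM in NP and 1485 in saline, and that over all 19 other genes linked to IFN-γ 3.90-fold (3.31 to 4.62), at 3715 and 954 CPM. The NP cells gave 87.7% of the UMIs of both sets, so a gene reached 50 UMIs mainly through NP, and counts over such genes lean toward NP and are a description. Of the GBPs and IRGs 11 reached 50 UMIs and were 2-fold higher (median 1.80, with 2 at a lower bound), 7 of them with the whole interval past 2-fold, and the 7 left out had 48 UMIs in NP and 0 in saline. Of the other IFN-γ-linked genes 8 reached it and were 2-fold higher (median 2.09, with 1 at a lower bound). The 11 left out had 105 and 11 UMIs, 4 of them none in either set, and the 3 with a saline UMI were not 2-fold different, with ratios of -0.72 (-2.04 to 0.85) for Nos2, -0.10 (-1.86 to 2.29) for Fcgr1 and 0.33 (-1.73 to 3.48) for Wars. Without the cell with the most UMIs in each library, the GBP and IRG sums were 5300 and 1371 CPM and the other IFN-γ sums 3549 and 917.

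**Figure D3:**
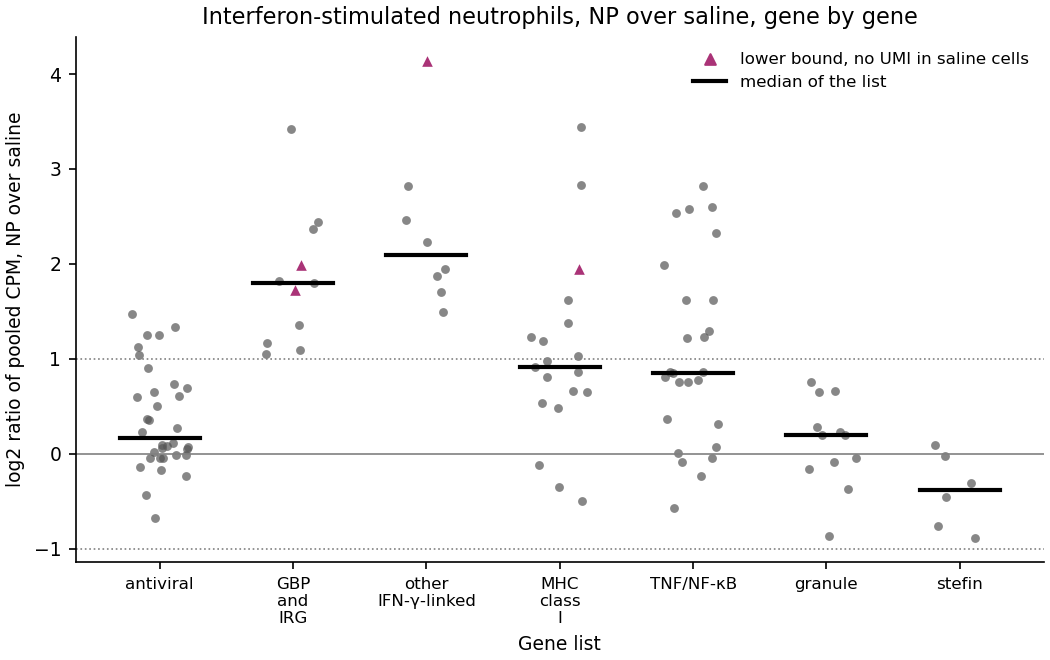
Log2 ratio of pooled CPM in NP over saline interferon-stimulated cells for each list gene with at least 50 UMIs, with bars at list medians, dotted lines at 2-fold and triangles for lower bounds of genes without a saline UMI. Antiviral genes center near 0 (median 0.17), while the 11 of 18 GBPs and IRGs and the 8 of 19 other IFN-γ-linked genes that reached 50 UMIs, mostly through the NP cells, lie above the upper 2-fold line.

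For named antiviral genes, given as a description, the log2 ratio of NP over saline was -0.05 (-0.81 to 0.81) for Ifit2, -0.02 (-0.58 to 0.60) for Ifit3b, -0.04 (-0.74 to 0.73) for Usp18 and -0.05 (-0.36 to 0.28) for Irf7. For Rtp4 it was 0.09 (-0.17 to 0.36), for Slfn5 0.11 (-0.24 to 0.48) and for Slfn1 0.07 (-0.18 to 0.32). The intervals of these 7 genes all lay within 2-fold. Both sets of cells had passed the same limit on interferon genes, and its part in these ratios was not tested. Nothing is therefore read from their small size. Of the 34 antiviral genes measured between the libraries, 6 were 2-fold higher in NP and 0 were 2-fold lower. The lowest were Oas1a, an RNA sensor of viral infection, at -0.68 (-1.50 to 0.23) and Isg20, an exonuclease, at -0.44 (-0.79 to -0.07). The highest were Cmpk2, a nucleotide kinase beside Rsad2, at 1.47 (0.46 to 2.71) and Herc6, the mouse ligase for Isg15, at 1.33 (0.37 to 2.48).

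The GBPs and IRGs differed gene by gene. Gbp5 was at 25.6 CPM in saline (4 UMIs in 2 cells) and 273 in NP (306 UMIs in 95 cells), a log2 ratio of 3.42 (2.05 to 5.30). Gbp2b was at 288 and 1561 CPM, a ratio of 2.44 (2.01 to 2.90), and Gbp2 at 422 and 901, a ratio of 1.09 (0.73 to 1.47). Among the IRGs, Ifi47 was at 141 and 724 CPM (2.36, 1.75 to 3.04) and Igtp at 154 and 543 (1.82, 1.23 to 2.47). For Gbp4, 71 UMIs in NP stood against 0 in saline, and its ratio was at least 1.72 against a floor of 3 counts. Of the 11 with at least 50 UMIs the lowest ratio was that of Gbp3, at 1.05 (0.21 to 2.03).

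The transcription factor Irf1 was at 205 CPM in saline and 961 in NP interferon-stimulated cells, a log2 ratio of 2.23 (1.72 to 2.79). In saline, Irf1 was less than 2-fold higher in the interferon-stimulated cells than in the other mature neutrophils, at 205 against 130 CPM (0.66, 0.11 to 1.16). Socs1 had a ratio of 2.46 (1.46 to 3.68) and Cd274 of 1.95 (1.12 to 2.91). Cxcl9 had 0 UMIs in saline cells, so its ratio was at least 4.14, resting on 7 NP cells. Icam1, the adhesion molecule that binds neutrophil integrins, had 2 saline and 101 NP UMIs, a ratio of 2.82 (0.93 to 5.88). The receptor genes were not higher in NP, with Ifngr1 at 576 CPM in saline and 352 in NP (-0.71, -1.04 to -0.36) and Ifngr2 at 218 and 141 (-0.62, -1.17 to -0.04).

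Above the limit, cells were grouped by their level of the 5 defining genes. In each group the libraries differed by over 2-fold in GBPs and IRGs and in other IFN-γ-linked genes. Antiviral and granule genes differed by less, and the part of a grouping by interferon genes in the antiviral levels was not tested. In cells with 0.3% to 0.6% of UMIs on those genes, 27 saline and 148 NP cells, GBPs and IRGs summed to 1114 CPM in saline and 4075 in NP, whereas antiviral genes summed to 7865 and 8588. In cells with at least 0.6%, 8 saline and 87 NP cells, the values were 2488 and 7524 for GBPs and IRGs and 13577 and 14343 for antiviral genes. Those 8 saline cells included the 1 that passed the limit on Cxcl10 alone, with 38 of its 3721 UMIs. That group has no upper limit, and its highest cell was at 1.15% in saline and 5.12% in NP, so levels within it were not matched. Nor was the make-up of the sum matched, as Cxcl10 gave 4.82% of the defining UMIs of all saline interferon-stimulated cells and 19.8% in NP. Below the limit, mature neutrophils with no UMI of the 5 genes had 142 CPM of GBPs and IRGs in saline and 433 in NP, and those from 0.2% to 0.3% had 844 and 3168. Antiviral genes also differed below the limit, at 1384 and 1934 CPM in cells with no UMI of the 5 genes, 1.40-fold (1.36 to 1.43). Barcodes under 50 UMIs, which hold free RNA, had 163 and 754 CPM of GBPs and IRGs, above the levels of the cells with no UMI of the 5 genes, and the part of free RNA in those levels was not tested. NP cells had more GBP and IRG transcripts in every group by level of the defining genes. Pooled, the other mature neutrophils of the NP library were at 1040 CPM, near the 1485 CPM of the saline interferon-stimulated cells. From 0.3% to 0.6%, the other IFN-γ-linked genes were at 956 CPM in saline and 2967 in NP, 3.10-fold (2.56 to 3.80). The MHC class I pathway was at 9417 and 14227 there, 1.51-fold (1.42 to 1.61). In the group at 0.6% and above, where levels were not matched, the other IFN-γ-linked genes were at 948 and 4998 and the MHC class I pathway at 10402 and 18778. Granule genes were at 9880 and 9881 CPM. In the same cells monocyte markers were at 521 CPM in saline and 984 in NP, 1.89-fold (1.23 to 3.05), and stress genes at 20164 and 27124, and from 0.3% to 0.6% monocyte markers were at 675 and 729. Their part in the differences was not tested.

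**Figure D4:**
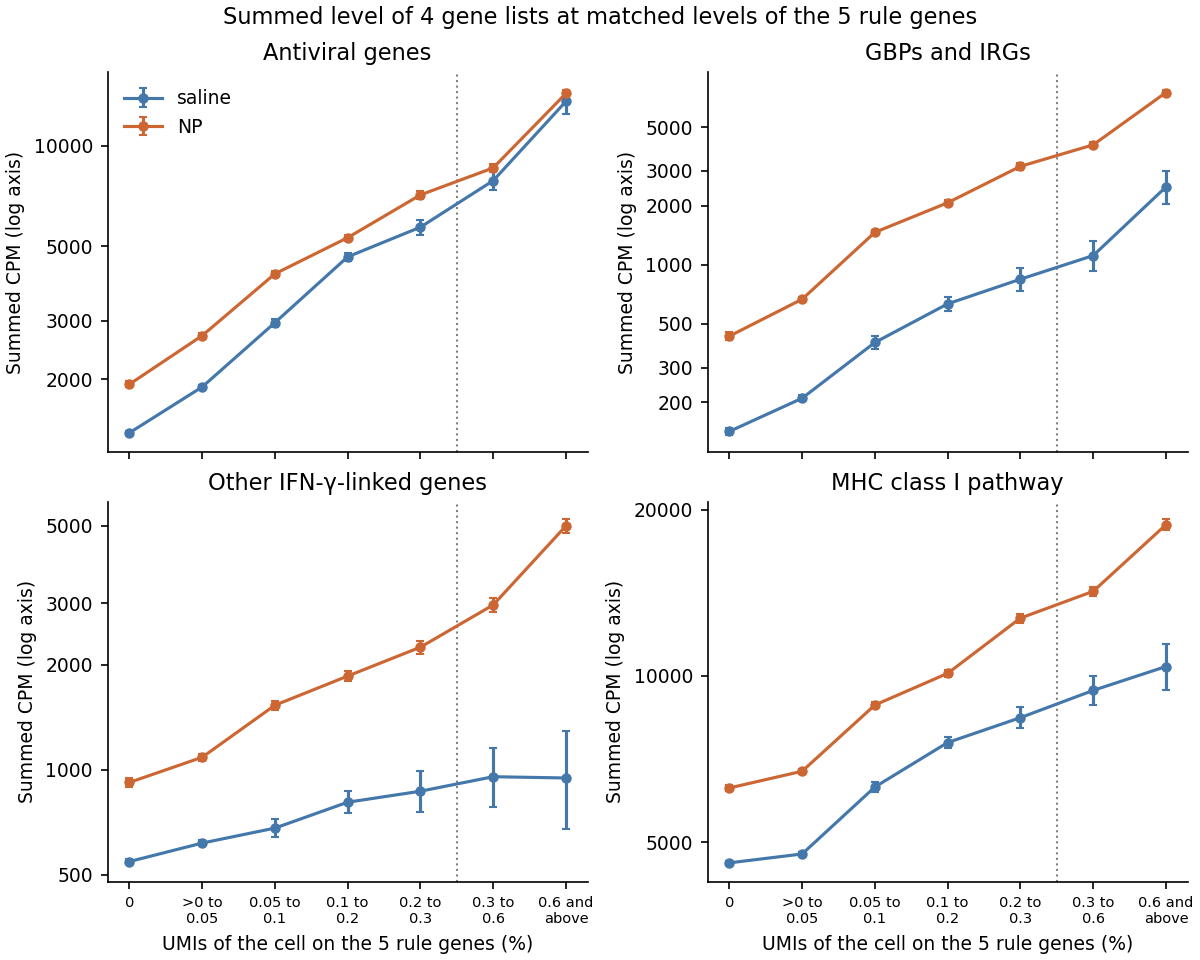
Summed CPM (log axes with separate ranges) of 4 gene lists in mature neutrophils grouped by their share of UMIs on the 5 defining genes (%), with lines for the saline and NP libraries, bars as 95% Poisson intervals and a dotted line at the 0.3% limit. The lines of the antiviral list come together at the right, at 13577 and 14343 CPM, while those of the GBP and IRG list stay apart, at 2488 and 7524. The cells were grouped by interferon genes, and the part of this grouping in the antiviral lines was not tested. The group at the right holds 8 saline and 87 NP cells, whose levels of the defining genes were not matched.

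MHC class I genes were higher in the NP cells by less, with 8 of 19 at 2-fold (median 0.92) and a sum 1.64-fold higher (1.56 to 1.73), near the 1.59-fold (1.58 to 1.60) between the other mature neutrophils of the libraries. H2-K1 had a ratio of 1.03 (0.71 to 1.37), B2m 0.81 (0.63 to 0.99) and H2-D1, the most abundant class I gene, 0.53 (0.43 to 0.64). TNF and NF-κB response genes had 11 of 26 at 2-fold higher (median 0.85) and a sum 1.31-fold higher (1.27 to 1.35), against 1.51-fold in the others, unevenly spread. Il1b had a ratio of 0.00 (-0.05 to 0.06), while Cxcl2 was at 1837 CPM in saline and 4481 in NP (1.29, 1.11 to 1.46). Sod2, the mitochondrial superoxide dismutase, was at 64.0 and 389 (2.60, 1.71 to 3.67), Acod1, which makes itaconate, at 262 and 1047 (2.00, 1.55 to 2.48) and Marcksl1, a membrane and actin regulator, at 256 and 1012 (1.98, 1.53 to 2.48). Of secreted factors, 6 of 14 were 2-fold higher (median 0.53), led by Cxcl9 and the chemokine Ccl3 at 2.53 (1.15 to 4.43), where 4 saline UMIs stood against 166 in 25 NP cells.

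Granule, identity and stefin genes had 0 of 12, 0 of 21 and 0 of 6 past 2-fold between the libraries, with medians of 0.20, 0.15 and -0.39. The stefin sum was 10682 CPM in saline and 8371 in NP. Without the cell with the most stefin UMIs in each library it was 6877 and 7920, so its direction rested on 1 saline cell. The 10 lowest genes of the NP over saline comparison lay between -1.04 and -0.73. R3hdm4 was the gene past 2-fold, at 288 CPM in saline and 140 in NP (-1.04, -1.52 to -0.53). Ifitm6, of the interferon-induced transmembrane family, was at 954 and 490 CPM (-0.96, -1.23 to -0.69), but 95 of its 149 saline UMIs were in 1 cell. Atf3, a stress-induced transcription factor, was at 314 and 173 CPM (-0.85, -1.31 to -0.37). Vim, Hmgn2, Cstdc4, Saa3, Ttc7, Slc40a1 and Rgs2 completed the 10.

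Within the NP library the interferon-stimulated cells were not uniform, and cells with Cxcl10 were higher in IFN-γ-linked and NF-κB genes than cells without. This split was chosen after values were seen and rests on a gene of the rule, so it is a description. The 48 cells with a Cxcl10 UMI had a median of 4567 UMIs, near the 4226 of the 187 cells without. GBPs and IRGs summed to 8727 CPM with and 4464 without, the other IFN-γ-linked genes to 6958 and 2869, and TNF and NF-κB response genes to 49312 and 33768. Antiviral genes, at 11485 and 10506, and granule genes, at 10143 and 10271, differed little, and Isg15 was at 4010 and 3862. Of 680 genes with at least 200 UMIs, 32 (4.71%) were 2-fold higher and 8 (1.18%) lower in the cells with Cxcl10. Among genes with at least 50 UMIs 4.53% were 2-fold higher and 5.22% lower, and of the lists 15 of 26 TNF and NF-κB genes, 5 of 11 GBPs and IRGs and 2 of 34 antiviral genes were 2-fold higher.

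Icam1 had 74 UMIs in the cells with Cxcl10 and 27 in those without, a log2 ratio of 3.39 (2.74 to 4.08). Sod2 had a ratio of 2.88 (2.59 to 3.17), Gbp5 2.77 (2.43 to 3.12) and Socs1 2.68 (2.34 to 3.02). Tnf, the cytokine itself, was detected in 12 of the 48 and 12 of the 187 cells, with a ratio of 2.59 (1.87 to 3.33), and its feedback inhibitors Tnfaip3 and Nfkbia had ratios of 2.39 (1.87 to 2.93) and 1.73 (1.60 to 1.85). Cd274 was at 600 and 216 CPM. Not every inflammatory gene followed: Il1b was at 19202 and 19641 CPM, and the chemokine genes Ccl3 and Ccl4 were lower in the cells with Cxcl10, at -1.19 (-2.01 to -0.47) and -1.08 (-1.56 to -0.64). The transcription factor gene Cebpd was lower too, at -1.37 (-1.65 to -1.10), as were the cytokine Osm at -1.21 (-1.56 to -0.87) and the iron exporter Slc40a1 at -1.38 (-2.04 to -0.79).

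**Figure D5:**
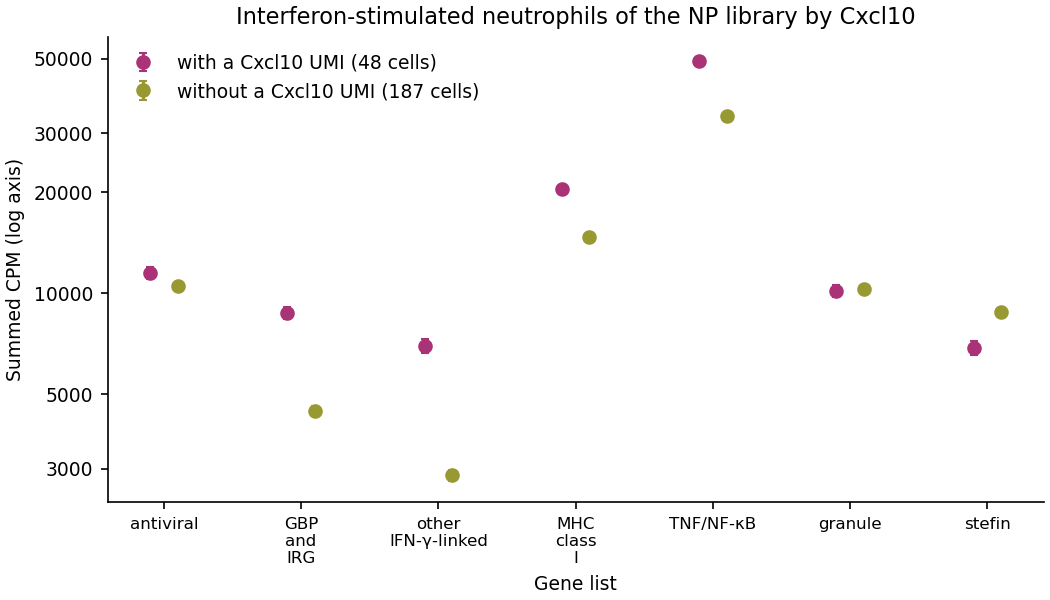
Summed CPM (log axis) of 7 gene lists in NP interferon-stimulated cells with a Cxcl10 UMI (48 cells) and without (187 cells), with bars as 95% Poisson intervals. The GBP and IRG list and the other IFN-γ-linked list differ most, at 8727 against 4464 and 6958 against 2869 CPM, and the granule list differs little, at 10143 against 10271.

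In the NP library, 53 of the 235 interferon-stimulated cells had no UMI of Retnlg. This split was made after values were seen, and these cells were shallower, with a median of 3320 UMIs against 4627 for the 182 others. Neutrophil identity genes summed to 129938 CPM in cells without Retnlg and 230209 in cells with it, and stefins to 5332 and 8965. MHC class I genes summed to 23403 and 14438 CPM, GBPs and IRGs to 7238 and 4976, and antiviral genes to 13051 and 10251. H2-K1 was at 2005 CPM without and 921 with Retnlg, and Ly6g at 60.1 and 214. Of 680 genes with at least 200 UMIs, 11 (1.62%) were 2-fold higher and 9 (1.32%) lower in the cells with Retnlg. Monocyte markers summed to 951 and 798 CPM, and their part in the split was not tested. In saline, where 9 cells had no Retnlg UMI and 26 had at least 1, GBPs and IRGs lay the other way, at 873 CPM without (565 to 1289) and 1622 with (1408 to 1859), MHC class I genes were at 10062 and 9598 and monocyte markers at 105 and 752.

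Cell by cell, antiviral genes took a median of 0.853% of UMIs in saline and 0.944% in NP interferon-stimulated cells, with ranges of 0.0806% to 3.87% and 0.0231% to 5.06%. GBPs and IRGs took a median of 0.0965% in saline, where the highest cell had 0.465% and 2 cells had 0, and 0.410% in NP, where the highest had 2.24% and 3 cells had 0. The 75th percentile of the NP interferon-stimulated cells, 0.836%, thus lay above every saline interferon-stimulated cell. Among the other mature neutrophils the highest cell had 0.891% in saline and 1.98% in NP. Across the 235 NP cells, which share a library and a depth range, Spearman's rho was 0.467 between the defining genes and the antiviral genes, 0.420 between the defining genes and GBPs and IRGs, 0.375 between antiviral genes and GBPs and IRGs, and 0.580 between GBPs and IRGs and MHC class I genes. Between GBPs and IRGs and TNF and NF-κB genes it was 0.289.

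Few cells outside the mature neutrophils passed the 0.3% limit. In saline 3 of 908 monocytes (0.330%), 1 of 474 B cells, 1 of 401 T cells and 0 of 435 endothelial cells, where 3 counts of the total would be 0.690%, passed it. In NP 17 of 1636 monocytes (1.04%, 0.606% to 1.66%), 0 of 606 B cells (3 counts, 0.495%), 1 of 312 T cells and 12 of 1569 endothelial cells (0.765%, 0.396% to 1.33%) passed. Immature neutrophils, deeper at medians of 24017 and 21942 UMIs, passed in 0 of 435 saline and 1 of 334 NP cells. Reaching the limit asks for more molecules in a deeper cell, so these shares are set side by side and not ranked.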

How the data were processed

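The deposited matrices held raw UMI counts per gene and barcode for 32285 genes, which the authors made with bcl2fastq and Cell Ranger 6.0 on mm10 per the submitters' notes. The saline library held 91168129 UMIs and the NP library 90081747. Matrices were unfiltered, so cells and classes were rebuilt from rules, with no doublet caller applied in the main analysis. The neutrophil rules are given above. Cells of other classes had under 5% of UMIs on S100a8 and S100a9 and at least 3 UMIs on the genes of a single class. These were F13a1, Ccr2 and Csf1r for monocytes and Cd79a, Cd79b and Ms4a1 for B cells. They were Cd3e, Cd3d and Trac for T cells and Cdh5, Cldn5, Egfl7 and Ramp2 for endothelial cells. The members, gene lists and splits were chosen with earlier results of these data known.

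Counts were summed over the cells of a population and divided by its total. Ratios have exact conditional binomial intervals, CPM exact Poisson intervals and shares Clopper-Pearson intervals, all at 95% and for counting error only, and a share of 0 is given with the share that 3 counts would be. Genes needed 200 UMIs over both sides, or 50 for the lists. Genes with 0 UMIs on 1 side were set to a floor of 3 counts and given as bounds. Of the 369 genes on 25 lists, 7 were not analysed here, and some others are not reported here. Named genes were the 5 of the rule, on each list the 4 with the most UMIs and the 2 highest and 2 lowest, and the 10 highest and 10 lowest overall. Others were chosen after their values were seen. Cells were thinned to 2000 UMIs for shares of cells with a UMI. The interval calculation was tested on simulated data. Alternatives were other limits for cells and for the rule, each defining gene left out, equal weight per cell, other gene minimums and other scalings. Python 3.11.15, scipy 1.17.1, pandas 2.3.3, scanpy 1.11.5 and matplotlib 3.10.9 were used.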

Additional observations from a re-analysis of the deposited data

Results flagged for a closer look

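Scgb1a1, a secretory protein gene of airway club cells, stood on opposite sides of the other mature neutrophils in the 2 libraries, a difference that was not tested. In saline the log2 ratio of interferon-stimulated cells to other mature neutrophils was 2.57 (2.24 to 2.89), from 82 UMIs in 14 cells, 61 of them in 1 cell, and the level was 525 CPM or 138 without that cell. In NP it was -1.70 (-3.16 to -0.56), from 6 UMIs. Among barcodes under 50 UMIs, which hold free RNA and were used in no comparison, Scgb1a1 was at 4429 CPM in saline and 352 in NP.

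The same barcodes carried interferon-induced transcripts. The 5 defining genes summed to 274 CPM in NP barcodes under 50 UMIs and 102 in saline, and GBPs and IRGs to 754 and 163. The corresponding levels were 7033 and 5043 CPM for the defining genes and 5346 and 1485 CPM for GBPs and IRGs in the interferon-stimulated cells.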

How the results depend on the processing

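No paired analysis was possible because each condition had 1 library. The log2 share of neutrophils in NP over saline, 3.59, was 4.93 when Isg15 was left out of the rule, which kept 4 saline and 68 NP cells. The count of antiviral genes 2-fold higher in NP stayed within 1.5 times of 36 under the alternatives run. GBPs and IRGs 2-fold higher between libraries, 11, numbered 7 at a 0.5% limit, 7 with S100a8 and S100a9 at 10%, 6 without Isg15, 7 for cells from 0.3% to 0.6% and 7 with whole intervals, settings that measured fewer genes or asked for more. Counts of genes against other mature neutrophils in NP, 209 higher and 127 lower, were 334 and 432 without Isg15, 447 and 336 against all other neutrophils, 433 and 448 at 50 UMIs, and 1643 and 634 at 1 UMI. The lower count was 79 at a 0.2% limit, 281 at 0.5% and 197 after thinning. In saline, 705 higher became 409 at 0.2%, 1323 at 50 UMIs and 1667 at 1 UMI, and 439 lower became 217 without Isg15. Between libraries, 43 higher became 21 for cells from 0.3% to 0.6%, 186 at 50 UMIs and 488 at 1 UMI. The 1 gene lower became 3 at 0.2%, 4 at 0.5%, 3 after thinning, 7 without Isg15, 2 with S100 at 10%, 2 when centered on the median, 2 for cells from 0.3% to 0.6%, 45 at 50 UMIs, 817 at 1 UMI, and 0 without Cxcl10, at 800 genes or without the highest 5% of Scrublet scores. The cause of these moves was not tested. After the data were seen, 2 alternatives were added. With at least 10 UMIs expected, the saline counts were 48 and 74. With whole intervals past 2-fold, the counts were 135 and 35 in NP, 87 and 22 in saline, and 17 and 0 between libraries. Of 765 named-gene values under the alternatives, 751 kept their sign and 14 had the opposite sign. Of 544 whose main value was past 2-fold, 8 were not past it under the alternative. The 35 saline cells limit every saline value, and 1 cell supplied much of Cxcl10, Ifit3 and the stefins there.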

Other observations

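Among all genes with at least 50 UMIs, 5.97% were 2-fold higher and 6.18% lower in NP. In saline 20.2% were higher and 6.69% lower, so equal counts in this paragraph do not mean the same in both libraries. Genes of cell survival and death were higher in the interferon-stimulated cells for 6 of 19 at 2-fold in each library, with medians of 0.87 in NP and 0.61 in saline, and their sum was 4306 CPM in NP and 3859 in saline. Casp4, the caspase that senses bacterial lipopolysaccharide, had log2 ratios to other mature neutrophils of 1.01 (0.87 to 1.15) and 1.21 (0.80 to 1.60), while the survival gene Mcl1 had 0.18 (0.12 to 0.23) and 0.31 (0.17 to 0.45). Sensing and uptake genes were 2-fold higher for 2 of 18 in NP and 1 of 17 in saline, with sums of 5699 and 4102 CPM. Suppressor-linked genes were 2-fold higher for 1 of 11 and 3 of 11 and lower for 1 in each, with sums of 4423 and 4243 CPM. Ptgs2, which makes prostaglandins, had ratios of 0.93 (0.81 to 1.05) and 1.63 (1.27 to 1.97). Oxidase and extracellular trap genes had 1 of 14 higher and 1 lower in NP and 0 of 12 higher and 1 lower in saline, with sums of 8189 and 6701 CPM. Padi4, the enzyme that citrullinates histones in trap formation, had ratios of -1.23 (-1.84 to -0.68) and -0.81 (-2.26 to 0.32). Early stress genes had 0 of 15 and 4 of 15 at 2-fold higher, with sums of 27409 and 24397 CPM against 21570 and 15714 in the others.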
